A study of Mus musculus with 2 samples.

Results

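Collagens are the structural proteins of the extracellular matrix. The collagen genes were taken as every feature whose symbol is Col, a number, the letter a and a number. This gave 44 of the 31055 features, and each of the 44 had at least 1 UMI (unique molecular identifier, 1 counted RNA molecule). No measured value chose them. They comprised 11 fibrillar collagens, 6 basement-membrane chains of type IV, 2 multiplexins, 6 beaded-filament chains of type VI, 4 network or anchoring collagens, 9 FACIT collagens, which sit on the surface of fibrils, 4 transmembrane collagens and 2 others.

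The data are 2 droplet single-cell libraries from Sox9iresGFP/+ mice at P3 (postnatal day 3), 1 of male (XY) and 1 of female (XX) pituitary cells sorted for GFP, with 3 pituitaries pooled in each. All animals carried the reporter allele. The sorted SOX9iresGFP+ fraction is not made up of stem cells (SCs) alone, and differentiating and endocrine cells were sorted with them. With 1 library per sex, sex and library cannot be told apart and no test between sexes was possible.

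Collagen chains fold in the endoplasmic reticulum into triple helices, either of identical chains or of fixed combinations, after prolines and lysines have been hydroxylated. Fibrillar collagens are then trimmed and cross-linked outside the cell into fibrils, whereas type IV chains build the sheet-like basement membranes on which epithelia rest. In the anterior pituitary, SCs line the cleft and lie between the endocrine cells, and fibroblast-like and mural cells follow the capillaries.

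Cells were sorted into classes by the number of listed marker genes with UMIs, and no collagen was used in doing so. Stem-like cells had at least 3 of 6 stem markers (among them Sox2, Sox9, Aldh1a2 and Ednrb), and differentiating-like cells at least 3 of 7 (among them Lef1, Cdkn1a, Dll1 and Smoc2). Endocrine-like cells had at least 2 markers of 1 hormone lineage and at least 3 of 5 secretory granule genes. Mesenchymal-like cells had at least 4 of 9 (among them Dcn, Lum, Pdgfra and Twist1), and pituicyte-like cells, glia of the posterior lobe, at least 3 of 6 (among them Rax and Lhx2). A cell that met the gates of more than 1 class was set aside, except that differentiating-like cells could still meet the stem gate. This left 3543 stem-like, 1635 differentiating-like, 879 endocrine-like, 5 pituicyte-like and 531 mesenchymal-like cells in the male library. The female library held 3521, 1147, 216, 0 and 290 cells of these classes.

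For each gene, the UMIs of all cells in a class were added up per library and scaled to 1000000 UMIs of that class (CPM). Where a pair of values is given without a sex, the male library comes first. Values in brackets are 95% intervals, exact Poisson for levels and exact conditional for ratios, and cover counting error only. Each library tags the ends of transcripts, so that levels were not ranked between genes. The libraries shared 19 cell barcodes. Under 2000 genes were found in 34% of the kept male barcodes and in 4.69% of the kept female barcodes. Dcn, a marker of the mesenchymal gate, stood at 5294 CPM in male and 6255 CPM in female mesenchymal-like cells. The same gene was at 6.54 CPM in male and 1.85 CPM in female stem-like cells. Of the 9 mesenchymal markers, Prrx1 did not separate these classes, at 164 and 203 CPM in stem-like and 107 and 79.8 CPM in mesenchymal-like cells. The endothelial list of 5 markers summed to 230 CPM in male and 259 CPM in female mesenchymal-like cells. Emcn made up 197 and 207 CPM of these sums, while Pecam1 stood at 0.432 and 0.405 CPM.

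The plot of 27 collagens by class shows that mesenchymal-like cells had most collagen RNA. All 44 genes together took 1.34% of the UMIs of male and 1.43% of those of female mesenchymal-like cells. The share was 0.0680% in male and 0.0728% in female stem-like cells. In differentiating-like cells it was 0.0574% and 0.0605%, and in endocrine-like cells 0.0187% and 0.0153%. A gene was counted as higher in a class where it passed 4-fold in both libraries, among genes with at least 10 UMIs in the 2 classes in each library. By this rule 21 of the 37 collagens that passed the UMI minimum were higher in mesenchymal-like than in stem-like cells, and 4 were lower. Of all features, 6.11% were higher and 6.3% lower. The median log2 ratio of mesenchymal-like over stem-like cells was 3.37 and 2.52 over the collagens. Over all features it was -0.03 and -0.04.

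**Figure D1:**
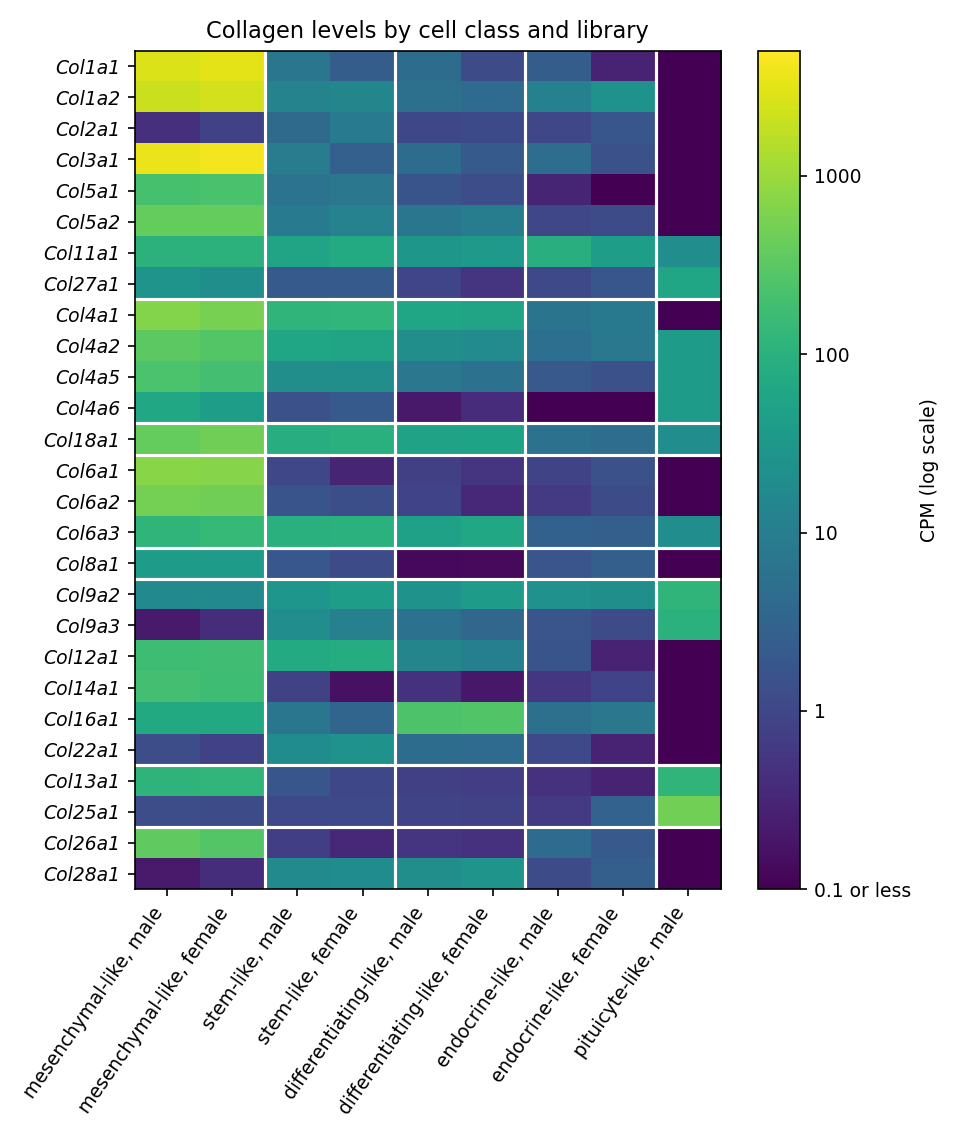
Collagen levels in CPM (colour, log scale) in each class and library, in family order from fibrillar (top) to other collagens, for the genes described in the text. The mesenchymal-like columns hold the highest levels of most genes, Col16a1 is highest in the differentiating-like columns, and Col25a1 stands out in the male pituicyte-like column, which rests on 5 cells.

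The fibrillar genes Col1a1, Col1a2 and Col3a1, whose chains form the bulk of interstitial fibrils, were higher in mesenchymal-like than in stem-like cells by 168-fold or more. Col1a1 (chromosome 11, 94936224 to 94953042, mm10) had 12855 UMIs in male and 7867 UMIs in female mesenchymal-like cells, or 2777 CPM (2729 to 2825) and 3186 CPM (3116 to 3257). It was detected in 526 of 531 and 288 of 290 of these cells. In stem-like cells Col1a1 stood at 6.98 CPM (6.20 to 7.83) and 2.46 CPM (1.98 to 3.03). Col3a1 stood at 3689 CPM and 4111 CPM in mesenchymal-like cells, against 9.45 CPM and 2.74 CPM in stem-like cells.

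The low values in stem-like cells were read beside those of mesenchymal genes. The stem-like level of Col1a1 was 0.251% and 0.0773% of its mesenchymal-like level. For Col3a1 it was 0.256% and 0.0666%, and for Dcn, a small fibril-binding proteoglycan, 0.124% and 0.0296%. Each of these shares was lower in the female library. Dcn is a marker of the mesenchymal gate, and cells that met this gate were kept out of the stem-like class. Its share thus depends in part on the gate. Of the 6 mesenchymal genes kept out of the gate, Mfap4 stood at 0.747% and 0.568%, Ogn at 2.22% and 2.54%, and Islr at 6.89% and 6.37%. Fbn1 stood at 13.9% and 14.2% and Fbln5 at 35.3% and 39.9%, and Dpt had at most 5 UMIs in a class. The genes of this list thus differed widely in how far they were shared with stem-like cells. Col1a2 (chromosome 6, 4504814 to 4541544) differed from Col1a1 and Col3a1 in that its share was not lower in the female library. Its stem-like level was 0.593% and 0.596% of the mesenchymal-like level, at 12.4 CPM (11.3 to 13.5) and 14.5 CPM (13.3 to 15.8). The ratio of Col1a1 to Col1a2 UMIs was 1.33 (1.29 to 1.37) and 1.31 (1.27 to 1.36) in mesenchymal-like cells. In stem-like cells it was 0.563 (0.486 to 0.651) and 0.170 (0.134 to 0.213).

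The minor fibrillar chains of type V, which regulate fibril diameter, were also higher in mesenchymal-like cells. Col5a1 stood at 215 CPM in male and 228 CPM in female mesenchymal-like cells, against 6.16 and 7.36 CPM in stem-like cells. Col5a2 stood at 391 and 394 CPM, against 9.11 and 12.1 CPM. Col27a1, a fibrillar collagen known from cartilage, stood at 26.6 and 21.9 CPM, against 2.16 CPM in stem-like cells of both libraries. Col11a1, a minor chain of cartilage fibrils, was different. Its stem-like levels were 56.5 CPM (54.2 to 58.8) and 74.5 CPM (71.7 to 77.3), and mesenchymal-like cells stood at 106 and 105 CPM.

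Type IV chains summed to 205 CPM in male and 208 CPM in female stem-like cells. The chains Col4a1 and Col4a2, which assemble together in nearly every basement membrane, are encoded head to head. Col4a1 lies on the minus strand of chromosome 8 (11198423 to 11312826) and Col4a2 on the plus strand (11312805 to 11449287), with annotated starts 21 bases apart. The shared start region is shown because both genes read out from it. The capitals mark the bases from the start of Col4a2 to that of Col4a1, on the plus strand of GRCm38 (chr8:11312801-11312830).
Col4a1 and Col4a2: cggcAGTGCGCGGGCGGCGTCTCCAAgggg

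Both genes kept nearly the same ratio in stem-like and in mesenchymal-like cells. Col4a1 stood at 121 CPM (118 to 124) in male and 122 CPM (118 to 126) in female stem-like cells, and at 682 and 537 CPM in mesenchymal-like cells. Col4a2 stood at 57.4 and 56.5 CPM in stem-like cells, and at 322 and 280 CPM in mesenchymal-like cells. There were 2.11 (2.01 to 2.22) and 2.16 (2.05 to 2.28) Col4a1 UMIs per Col4a2 UMI in stem-like cells. The values were 2.12 (1.99 to 2.25) and 1.92 (1.75 to 2.11) in mesenchymal-like cells. Differentiating-like cells had higher ratios, 2.80 (2.53 to 3.11) and 2.95 (2.58 to 3.39). Endocrine-like cells had lower ones, 1.25 (0.899 to 1.76) and 1.04 (0.583 to 1.85), on 84 and 27 Col4a1 UMIs.

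The X-linked pair Col4a5 and Col4a6, also transcribed away from each other, did not keep 1 ratio. Col4a5 stood at 20.7 and 21.3 CPM in stem-like and 239 and 200 CPM in mesenchymal-like cells. Col4a6 stood at 1.46 and 2.10 CPM in stem-like and 62.9 and 41.7 CPM in mesenchymal-like cells. The ratio of Col4a5 to Col4a6 UMIs was 14.2 (10.9 to 18.7) and 10.1 (8.01 to 13) in stem-like cells. It was 3.80 (3.33 to 4.34) and 4.79 (3.86 to 5.98) in mesenchymal-like cells. Col18a1, a multiplexin whose fragment is endostatin, stood at 83.9 CPM (81.2 to 86.8) and 94.9 CPM (91.8 to 98.2) in stem-like cells. In mesenchymal-like cells it stood at 395 and 482 CPM.

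Type VI collagen, the beaded filament of the pericellular matrix, had partner chains that parted between the classes. Its classic heterotrimer combines the products of Col6a1, Col6a2 and Col6a3. Col6a1 (chromosome 10, 76708792 to 76726168, minus strand) stood at 743 CPM (718 to 768) in male and 694 CPM (661 to 727) in female mesenchymal-like cells. In stem-like cells it stood at 0.983 CPM (0.705 to 1.33) and 0.304 CPM (0.152 to 0.544), on 41 and 11 UMIs. Col6a2, which lies on the same strand of chromosome 10 (76595762 to 76623630), stood at 516 and 486 CPM in mesenchymal-like and 1.68 and 1.33 CPM in stem-like cells. Col6a3 (chromosome 1, 90765923 to 90843971, minus strand) stood at 119 CPM (109 to 129) and 139 CPM (125 to 155) in mesenchymal-like cells. In stem-like cells it stood at 96.4 CPM (93.5 to 99.4) and 101 CPM (97.4 to 104), on 4022 and 3640 UMIs.

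Col6a3 was thus 1.23-fold and 1.38-fold higher in mesenchymal-like cells, where Col6a2 was 307-fold and 366-fold higher. The ratio of Col6a1 to Col6a3 UMIs was 6.25 (5.71 to 6.85) and 4.98 (4.43 to 5.61) in mesenchymal-like cells. In stem-like cells it was 0.0102 (0.00730 to 0.0139) and 0.00302 (0.00151 to 0.00541). After each cell was thinned to 5000 UMIs, 34.5% of male and 34.2% of female stem-like cells had a Col6a3 UMI, against 39.7% and 43.3% of mesenchymal-like cells. Unthinned, the shares were 51.2% and 50.9% of stem-like and 50.8% and 57.9% of mesenchymal-like cells. In endocrine-like cells, which were deeper, the thinned share was 1.31% (10 of 761 cells) and 0.943% (2 of 212 cells). Thinning left out 611 male and 132 female stem-like cells and 73 and 22 mesenchymal-like cells. The median UMI number was 9504 and 9066 in stem-like, 7928 and 7657 in mesenchymal-like and 13819 and 14573 in endocrine-like cells.

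Bases upstream of these 3 genes are shown because their RNAs parted between classes. They are the longest stretch without an annotated exon in the 250 bases before each RefSeq start, on the minus strand of GRCm38. Both strands were searched for the GC box, spelled GGGCGG. The same was done for the CCAAT box, spelled like its name. The TATA box was spelled TATAAA. Col6a2 held 1 GC box, in capitals, and no other match was found.
Col6a1, chr10:76726169-76726294: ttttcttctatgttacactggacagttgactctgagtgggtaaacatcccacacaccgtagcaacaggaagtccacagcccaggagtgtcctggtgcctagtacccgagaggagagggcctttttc
Col6a2, chr10:76623631-76623880: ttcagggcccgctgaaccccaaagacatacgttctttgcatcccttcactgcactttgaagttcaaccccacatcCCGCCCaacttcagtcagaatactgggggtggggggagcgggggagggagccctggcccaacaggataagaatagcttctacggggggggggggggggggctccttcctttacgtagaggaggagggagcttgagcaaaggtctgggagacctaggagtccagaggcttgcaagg
Col6a3, chr1:90843972-90844221: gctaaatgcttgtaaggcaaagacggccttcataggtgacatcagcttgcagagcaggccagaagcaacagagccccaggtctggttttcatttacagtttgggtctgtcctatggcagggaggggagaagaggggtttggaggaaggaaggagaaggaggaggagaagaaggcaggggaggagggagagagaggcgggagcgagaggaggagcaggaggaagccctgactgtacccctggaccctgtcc

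Of 32851 RefSeq promoter windows of the 250 bases before a start, 32.7% held a GC box, 33.8% a CCAAT box and 12.4% a TATA box. All 250 bases were searched here, whereas the stretches shown were cut to bases outside exons, such as 126 bases for Col6a1. Among the 38 windows of collagen genes, which cover 35 of the 44 genes, 22 held a GC box, 13 a CCAAT box and 5 a TATA box. Reverse-strand CCAAT boxes can share their last bases with a GC box. A match describes these letters only.

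The remaining collagens at 20 CPM or more included several that were low in stem-like cells. Col14a1, a FACIT collagen, stood at 201 and 175 CPM in mesenchymal-like cells, against 0.839 and 0.166 CPM in stem-like cells. Col26a1, a small secreted collagen, stood at 354 and 279 CPM, against 0.743 and 0.332 CPM. Col13a1, a transmembrane collagen of cell-matrix junctions, stood at 115 and 121 CPM, against 1.85 and 1.02 CPM. Col8a1, which forms short-chain hexagonal networks, stood at 39.7 CPM in both libraries, against 1.89 and 1.19 CPM. Col12a1, a FACIT collagen, was shared more evenly, with 177 and 179 CPM in mesenchymal-like and 74.6 CPM (72 to 77.2) and 81.9 CPM (79.0 to 84.9) in stem-like cells.

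The 4 collagens that were higher in stem-like cells were Col2a1, Col9a3, Col22a1 and Col28a1. All were at 1.30 CPM or less in mesenchymal-like cells of both libraries. Col9a3, a chain of the type IX FACIT collagen, stood at 20.1 CPM (18.8 to 21.5) in male and 11.3 CPM (10.3 to 12.5) in female stem-like cells. Col22a1, a FACIT collagen of tissue junctions, stood at 19.2 CPM (17.9 to 20.6) and 24.5 CPM (22.9 to 26.2). Col28a1, a collagen first known from peripheral nerve, stood at 18.1 CPM (16.8 to 19.4) and 19.4 CPM (18 to 20.8). Col2a1, the main fibrillar collagen of cartilage, stood at 4.24 CPM (3.64 to 4.92) and 8.38 CPM (7.46 to 9.38). Col9a2, the partner of Col9a3, stood at 29.5 and 42.6 CPM in stem-like and still at 17.3 and 17.8 CPM in mesenchymal-like cells.

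Within the stem-like class, cells rich in Ednrb and cells rich in Aldh1a2 were compared, 432 against 1116 male and 1038 against 898 female cells. Col2a1 stood at 10.1 and 12.8 CPM in the Ednrb subset and at 1.88 and 3.62 CPM in the Aldh1a2 subset. Col1a2 stood at 23.8 and 19 CPM, against 8.88 and 7.35 CPM. Col4a1 stood at 177 and 156 CPM, against 111 and 100.2 CPM. Other members lay the opposite way. Col28a1 stood at 6.23 CPM and 10.8 CPM in the Ednrb subset and at 27 CPM and 34.5 CPM in the Aldh1a2 subset. Col6a3 stood at 76.7 and 86.3 CPM, against 117 and 133 CPM. The direction was the same in both libraries for each of these 5 genes.

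Among mesenchymal-like cells, a Tcf21 subset (163 male and 60 female cells) was set beside an Apod/Mfap5 subset (37 and 18 cells). The former had at least 1 UMI of Tcf21 and at most 1 UMI of Apod and Mfap5 together. The latter had no UMI of Tcf21 and at least 3 UMIs of Apod and Mfap5 together, so either gene alone could suffice. Col8a1 stood at 18.6 and 11.8 CPM in the former and at 203 and 135 CPM in the latter. Its ratio was 10.9 (6.64 to 18.6) and 11.4 (4.26 to 38.5). Col13a1 lay the other way, at 129 and 147 CPM in the Tcf21 subset and 60.2 and 76.4 CPM in the other. The plot of ratios between subsets leaves out Col8a2 and Col27a1 for their low counts. Most other collagens in it lay closer to 1.

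Differentiating-like cells had less of most collagens than stem-like cells. Of the 36 collagens that passed the UMI minimum, 7 were lower by 4-fold in both libraries (Col2a1, Col4a4, Col4a6, Col8a1, Col8a2, Col12a1 and Col22a1), against 2.68% of all features. Of the same 36, 1, Col16a1, was higher, against 2.7% of all features, so that this count is close to the share of all features. The median log2 ratio over the collagens was -1.16 and -1.55, against -0.04 and -0.07 over all features. Basement-membrane chains summed to 90.0 and 81.4 CPM, against 205 and 208 CPM in stem-like cells. With 1 marker fewer asked of each gate, 0 collagens were lower by 4-fold, and the male log2 ratio of Col8a1 went from -3.90 to 1.26.

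Col16a1, a FACIT collagen that associates with fibrils and with integrins, had 5793 UMIs in male and 3975 UMIs in female differentiating-like cells. In stem-like cells there were 290 and 121 UMIs, although these cells were more numerous. Its differentiating-like levels were 245 CPM (239 to 252) and 261 CPM (253 to 269), against 6.95 CPM (6.17 to 7.80) and 3.35 CPM (2.78 to 4) in stem-like cells. The ratio was 35.3 (31.4 to 39.9) and 78.0 (65.1 to 94.2), or 5.14 and 6.28 on the log2 scale, and lay between 4.34 and 6.61 under all alternatives run. In mesenchymal-like cells it stood at 71.9 and 72.1 CPM and in endocrine-like cells at 5.51 and 7.18 CPM. The gene lies on chromosome 4 (130047840 to 130099283, plus strand). The stretch without an annotated exon at the far end of the 250 bases before its start is shown as for type VI, and held none of the 3 motifs.
Col16a1, chr4:130047590-130047661: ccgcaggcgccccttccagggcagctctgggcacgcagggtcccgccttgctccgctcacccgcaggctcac

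Groups from stem-like to gonadotroph cells were set side by side in the plot of 5 collagens, with differentiating-like cells split by whether they also met the stem gate. Their order comes from the gates, and no path between the cells was measured. Gonadotrophs make LH and FSH and were the largest endocrine lineage of the male library. Their gate asked for at least 2 of Cga, Lhb, Fshb, Gnrhr, Nr5a1 and Foxl2, besides the granule genes. According to the paper, FOXL2 marks commitment to the thyrotroph as well as the gonadotroph fate. Of the cells called gonadotrophs here, 221 of 469 male and 29 of 46 female cells had no UMI of Gnrhr, Lhb or Fshb. Col16a1 stood at 164 CPM (157 to 171) in male and 183 CPM (174 to 193) in female differentiating-like cells that met the stem gate. It stood at 337 CPM (327 to 348) and 343 CPM (330 to 357) in those that did not. In cells that met both the differentiating and the gonadotroph gate it was at 69.0 and 136 CPM, and in gonadotrophs at 8.92 CPM (6.76 to 11.6) and 22.6 CPM (12.7 to 37.3). Cells of both gates could also meet the stem gate. Their median UMI number was 16183 and 14422, against 12388 and 11917 in differentiating-like cells without the stem gate. Whether they were doublets was not tested. Thinned to 5000 UMIs, 56.5% of male and 59.8% of female differentiating-like cells without the stem gate had a UMI of Col16a1. The shares were 2.25% and 1.15% in stem-like and 2.23% and 4.25% in endocrine-like cells. Unthinned, they were 66.6% and 73.3%, 5.62% and 1.99%, and 5.92% and 9.26%.

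**Figure D2:**
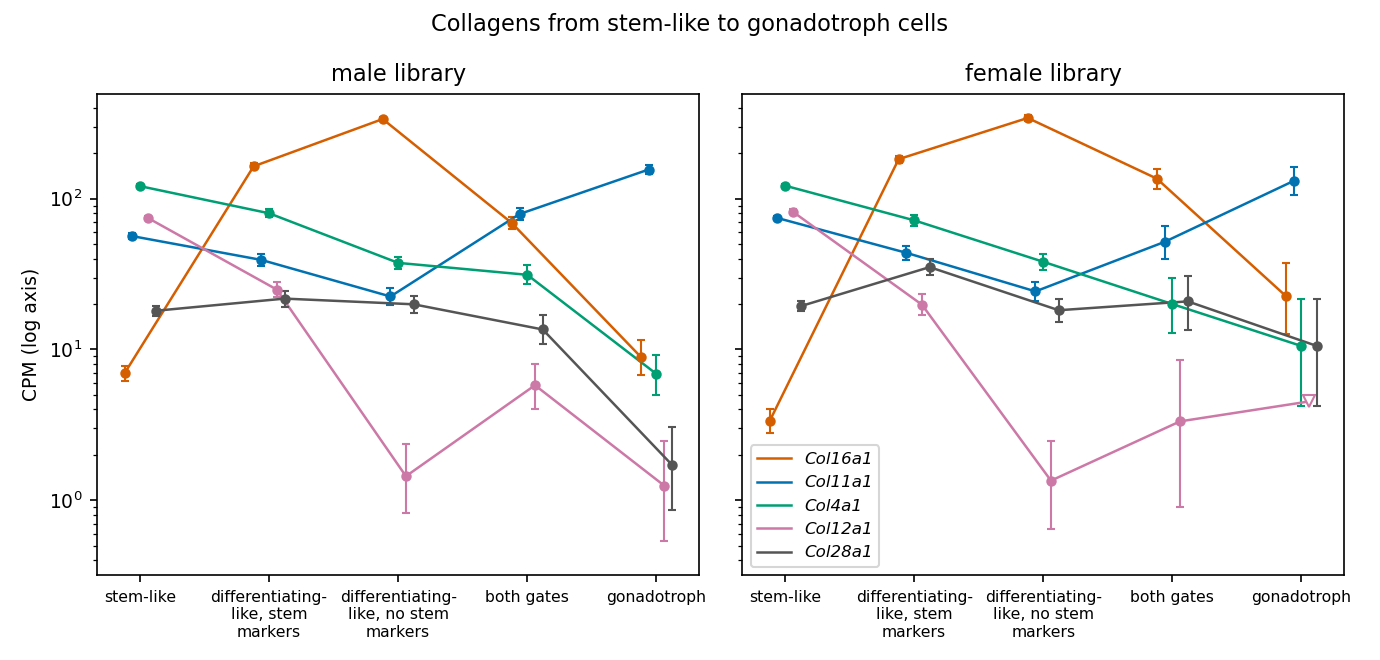
CPM (log axis) of 5 collagens in stem-like cells, differentiating-like cells with and without the stem gate, cells of both the differentiating and gonadotroph gates, and gonadotrophs, with exact Poisson 95% intervals (bars) and the limit of a count of 0 as an open triangle. Col16a1 peaks in differentiating-like cells without the stem gate, at 337 and 343 CPM, and Col11a1 is highest in gonadotrophs, at 156 and 131 CPM.

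Col12a1 and Col4a1 were lower in the differentiating-like groups and in gonadotrophs than in stem-like cells. Col12a1 stood at 24.9 and 19.8 CPM in differentiating-like cells with the stem gate and at 1.44 CPM (0.825 to 2.34) and 1.35 CPM (0.647 to 2.48) without it, and at 5.79 and 3.33 CPM in cells of both the differentiating and gonadotroph gates. Col4a1 stood at 80.0 and 71.9 CPM with the stem gate, at 37.5 and 38.2 CPM without it and at 6.89 and 10.5 CPM in gonadotrophs. Col28a1 did not differ 4-fold between stem-like and differentiating-like cells. It stood at 20.9 and 26.9 CPM in all differentiating-like cells. Gonadotrophs had 11 and 7 of its UMIs, or 1.72 CPM (0.859 to 3.08) and 10.5 CPM (4.24 to 21.7).

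Endocrine-like cells had the lowest summed collagen levels of the classes. Of 36 collagens that passed the UMI minimum, 14 were lower than in stem-like cells, against 6.15% of all features. Another 2 (Col19a1 and Col26a1) were higher, against 6.3% of all features, so that 2 of 36 is close to that share. The median log2 ratio over the collagens was -1.31 and -0.92, against 0.01 and -0.01 over all features. With cells of several gates kept in the class with more marker UMIs, 9 were lower, and with 1 marker more or fewer 1 was higher. The 14 included Col4a1, Col4a2, Col4a5, Col18a1, Col6a3, Col12a1, Col5a1 and Col5a2. Col6a3 stood at 2.87 and 2.69 CPM, against 96.4 and 101 CPM in stem-like cells. Col18a1 stood at 5.58 and 4.79 CPM. Col19a1, a FACIT-related collagen known from neurons, stood at 4.65 CPM in male and 2.99 CPM in female endocrine-like cells.

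Col11a1 (chromosome 3, 114030540 to 114220718, plus strand) was highest in gonadotrophs among the lineages. It had 997 UMIs in 354 of 469 male gonadotrophs and 87 UMIs in 36 of 46 female ones, or 156 CPM (147 to 166) and 131 CPM (105 to 162). In POMC-lineage cells, which are corticotrophs and melanotrophs, it stood at 6.79 CPM (4.47 to 9.88) and 10.3 CPM (6 to 16.5). In POU1F1-lineage cells, which are somatotrophs, lactotrophs, thyrotrophs and their precursors, it stood at 41.2 CPM (32.6 to 51.3) and 36.5 CPM (24.6 to 52.1). Gonadotrophs were thus above both other lineages, in each library, beyond the counting intervals. Against differentiating-like cells the ratio was 4.98 (4.52 to 5.48) and 3.83 (3.01 to 4.81). Gonadotrophs with a UMI of Gnrhr, Lhb or Fshb (248 and 17 cells) stood at 185 and 160 CPM. Those without (221 and 29 cells) stood at 123 and 114 CPM. That ratio was 1.51 (1.32 to 1.72) and 1.40 (0.895 to 2.19), and the female interval spans 1. Thinned to 5000 UMIs, 48.5% of male and 48.9% of female gonadotrophs had a Col11a1 UMI, against 2.5% and 4.95% of POMC-lineage cells. Unthinned, the shares were 75.5% and 78.3%, against 9.35% and 11.8%.

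Col1a2 was detected in the POU1F1 lineage. There were 99 UMIs in 50 of 132 male cells and 77 UMIs in 22 of 58 female cells, or 51.6 CPM (41.9 to 62.8) and 93.7 CPM (74.0 to 117). In gonadotrophs the male level was 2.35 CPM (1.31 to 3.87), and 46 female cells had 0 UMIs, with an upper limit of 5.56 CPM. In POMC-lineage cells it stood at 6.54 CPM (4.27 to 9.58) and 2.42 CPM (0.661 to 6.21). Col1a1 did not accompany it. In POU1F1-lineage cells Col1a1 had 6 male and 0 female UMIs, and Col3a1 had 10 and 3. The ratio of Col1a1 to Col1a2 UMIs there was 0.0606 (0.0217 to 0.137) in the male library, where mesenchymal-like cells had 1.33. In the female library it was at most 0.0491. A single female cell held 17 of the 77 UMIs of Col1a2, and without it the level was 76.1 CPM.

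Within this lineage, Col1a2 stood at 57.0 CPM in 43 male and 192 CPM in 5 female Prl cells, and at 40.6 CPM in 19 male and 16.5 CPM in 25 female Gh cells. Cells that passed the level of none of the hormones stood at 50.8 CPM (70 cells) and 114 CPM (27 cells). The order of Prl over Gh cells was the same in both libraries. However, the male counting intervals of Prl and Gh cells overlap, and the female Prl value rests on 5 cells. After thinning, 19.4% (12.8 to 27.4) of male and 19.6% (10.2 to 32.4) of female POU1F1-lineage cells had a UMI of Col1a2, with Clopper-Pearson 95% intervals. The shares were 0.895% and 0% in gonadotrophs and 4.26% and 5.93% in stem-like cells. Unthinned, they were 37.9% in both libraries, 3.20% and 0%, and 8.83% and 10.3%. The plot of 4 collagens by lineage shows Col1a2 and Col11a1 in different lineages and Col4a1 low in all.

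**Figure D3:**
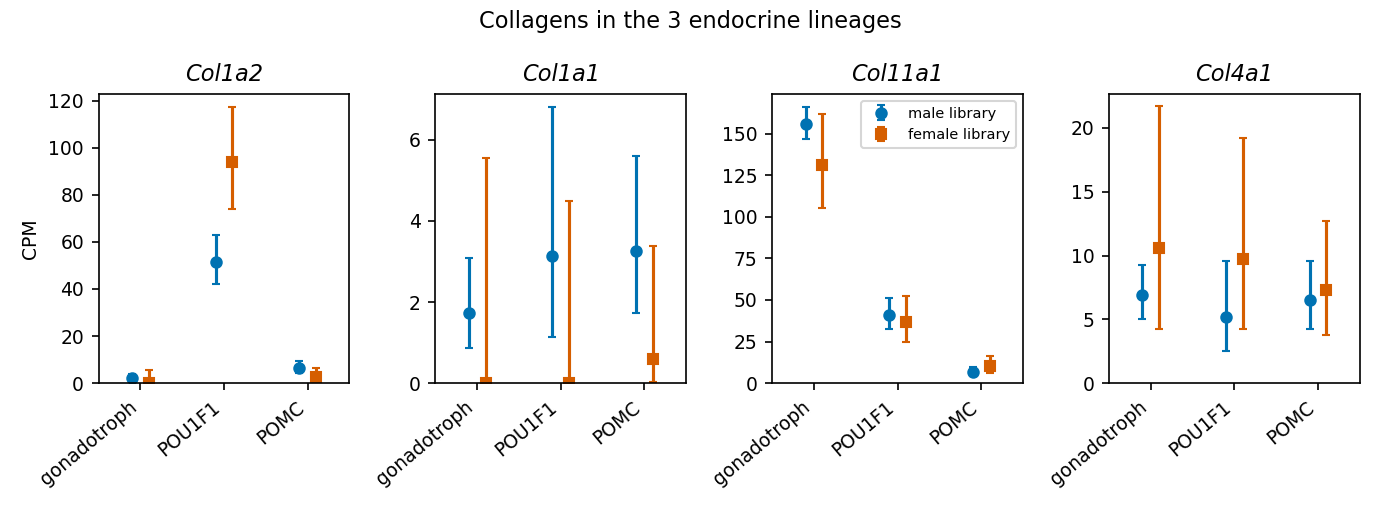
CPM of Col1a2, Col1a1, Col11a1 and Col4a1 in gonadotroph, POU1F1 and POMC lineage cells, with exact Poisson 95% intervals (bars), for male (blue circles) and female (orange squares) libraries on separate linear axes. Col1a2 is highest in the POU1F1 lineage, at 51.6 and 93.7 CPM, and Col11a1 in gonadotrophs, at 156 and 131 CPM.

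Pituicyte-like cells could be described in the male library only, from 5 cells. The 6 pituicyte markers summed to 1238 CPM in them, against 1.85 CPM in male stem-like cells. The gate counts these same markers, so this contrast follows from the gate and is no check of what the cells are. Of 37 collagens with enough UMIs, 8 were higher than in stem-like cells by 4-fold (Col4a6, Col9a1, Col9a2, Col9a3, Col13a1, Col23a1, Col25a1 and Col27a1), against 6.5% of all features. All of the 8 but Col25a1 rest on 1 to 6 UMIs in the 5 cells, and 5 were higher with 1 marker more or fewer. The median log2 ratio was 2.31 over the 13 collagens with a UMI in both classes, against 0.44 over all such features. Collagens with 0 UMIs in the 5 cells, such as Col4a1 and Col12a1, were left out of this median. With so few UMIs in the class, a collagen that was low in stem-like cells could enter only with a high ratio. The median thus cannot show whether the collagens as a set were higher. Col25a1, a transmembrane collagen known from neurons, had 25 UMIs and stood at 499 CPM (323 to 737), against 1.08 CPM in male stem-like and 1.30 CPM in male mesenchymal-like cells. The 5 cells held 8, 4, 3, 10 and 0 of its UMIs. Col9a2 and Col9a3 stood at 120 CPM (44.0 to 261) and 99.9 CPM (32.4 to 233). Col4a1 had 0 UMIs, with an upper limit of 73.7 CPM.

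A wider set was taken after the data were seen, with all 12 male cells that met the pituicyte gate, of which 7 also met the stem gate. Col25a1 was found in 10 of the 12, with 0 to 17 UMIs per cell and a median of 5. In this set Col25a1 stood at 368 CPM (287 to 466) and Col23a1, another transmembrane collagen, at 163 CPM (111 to 232). The count of collagens above stem-like cells was 8, of which 6 were shared with the 5 cells, which are part of the 12. The others were Col16a1, on 6 UMIs, and Col26a1, on 1 UMI. The share of all features was not computed for this set. Whether the cells that met both gates were doublets was not tested.

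Between the libraries, the collagen levels of mesenchymal-like cells lay close together. Of the 33 collagens that passed the UMI minimum, 0 were higher by 2-fold in the female library, against 1.72% of all features, and 2 (Col6a4 and Col6a6) were higher in the male library, against 4.38%. Both were at 7.99 CPM or less. Among collagens at 20 CPM or more in a library, the lowest female to male ratio was 0.552 (0.363 to 0.821), for Col15a1, a multiplexin of vessel walls. Then followed Col4a6 at 0.664 and Col4a1 at 0.787. The highest were Col8a2 at 1.95 (1.29 to 2.95), Col18a1 at 1.22 and Col6a3 at 1.17.

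In stem-like cells, 1 of 39 collagens, Col17a1, was higher in the female library, on 11 against 5 UMIs, where 2.63% of all features were. In the male library 7 were higher, against 3.16% of all features (Col1a1, Col3a1, Col6a1, Col14a1, Col15a1, Col16a1 and Col26a1). All 7 were at 9.45 CPM or less in stem-like cells and all are among the 21 that were higher in mesenchymal-like cells. Dcn, a marker of the mesenchymal gate, was also lower in the female library, at 6.54 CPM in male and 1.85 CPM in female stem-like cells. Of the mesenchymal genes kept out of the gate, Mfap4 stood at 3.86 and 3.26 CPM and Islr at 55.98 and 54.6 CPM. Others lay the opposite way, with Ogn at 10.3 and 13.4, Fbn1 at 20.1 and 21.3 and Fbln5 at 12.97 and 19.7 CPM. Col1a2 did so too, at 12.4 and 14.5 CPM. The part of Dcn and of these genes in the differences was not tested. For Col1a1 the log2 ratio of female over male was -1.50. It was -0.78 when only cells with at least 2000 genes were used and -0.57 with 1 more marker asked of each gate. With 1 marker fewer it was -2.22, and by the mean over cells of each cell's CPM it was -3.34, so that its size, but not its sign, depended on these choices. Of the collagens at 20 CPM or more, Col9a3 had the lowest female to male ratio, 0.564 (0.500 to 0.636), and Col4a2 and Col4a1 were next at 0.984 and 1.01. Its partner Col9a2 had the highest, 1.44 (1.34 to 1.55), followed by Col11a1 at 1.32 and Col22a1 at 1.27. The stem-like classes differed in make-up. The Ednrb subset held 432 of 3543 male and 1038 of 3521 female cells, and the Aldh1a2 subset 1116 and 898. Cells with at least 3 proliferation markers numbered 865 and 579. The part of this make-up in the ratios was not tested.

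**Figure D4:**
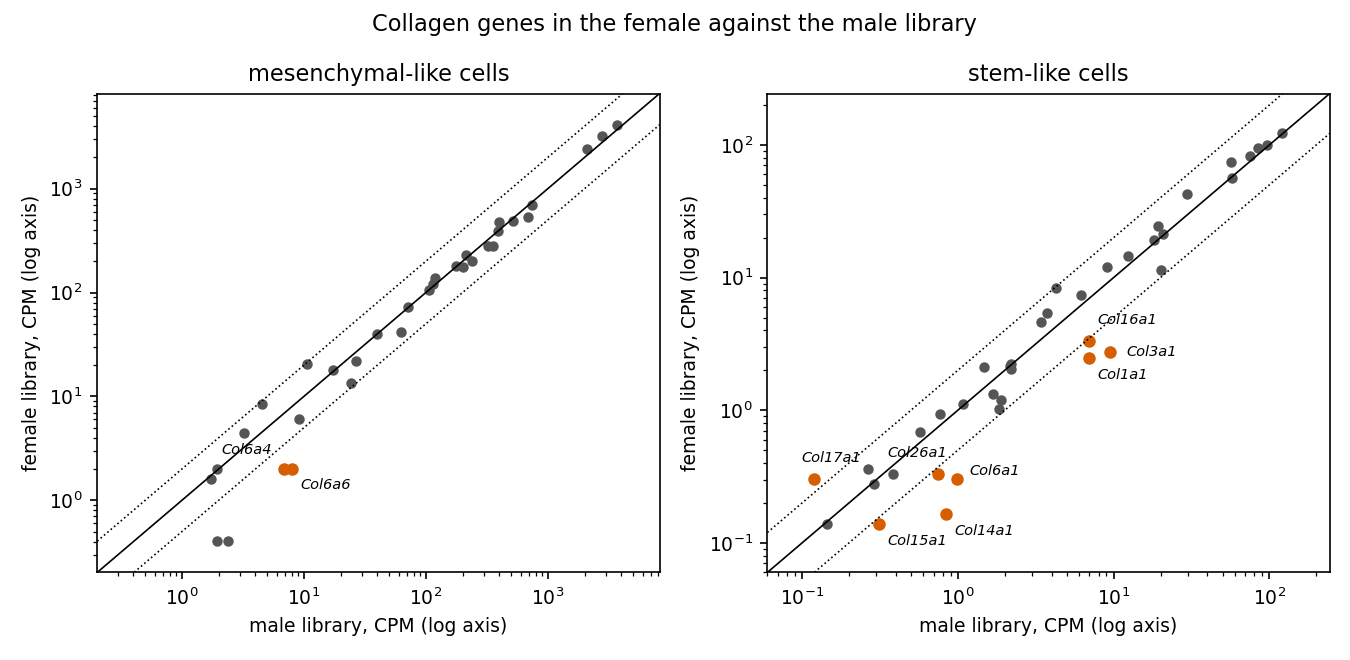
CPM of each collagen with a UMI in both libraries, female (vertical, log axis) against male (horizontal, log axis), in mesenchymal-like (left) and stem-like cells (right), with the line of equality and dotted lines at 2-fold. Orange points passed 2-fold with the lower count raised to 3 UMIs, which 2 genes did on the left and 8 on the right, all below 10 CPM.

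The machinery that makes collagen was read from lists of other genes. Among 15 hydroxylases, glycosyltransferases and their partners, 4 were higher in mesenchymal-like than in stem-like cells (Plod1, P3h1, P3h3 and Crtap) and 1, P4ha3, a prolyl hydroxylase subunit, was lower. Of all features, 6.11% were higher and 6.3% lower, so that 1 of 15 is close to the share of all features that were lower. P4ha3 had 609 and 723 UMIs in stem-like cells, and stood at 0.432 and 0.405 CPM in mesenchymal-like cells, on 2 and 1 UMIs. Plod1, a lysyl hydroxylase, stood at 46.2 and 35.2 CPM in mesenchymal-like and at 5.08 and 5.14 CPM in stem-like cells. Of 6 chaperones and export factors, 2 were higher. Serpinh1, the collagen chaperone HSP47, stood at 1022 and 1000.2 CPM in mesenchymal-like and at 170 and 182 CPM in stem-like cells. Creb3l1, a transcription factor that drives collagen secretion, stood at 149 and 143 CPM, against 1.32 and 1.16 CPM.

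Of 13 genes for trimming and cross-linking, 9 passed the UMI minimum and 5 were higher in mesenchymal-like cells (Pcolce, Adamts2, Lox, Loxl2 and Loxl3), where 6.11% of all features were. Pcolce, an enhancer of propeptide cleavage, stood at 538 and 641 CPM, against 2.30 and 2.18 CPM. Lox, a lysyl oxidase, stood at 310 and 424 CPM, against 2.11 and 3.90 CPM. Of 9 receptors, 8 passed the minimum and 4 were higher, the integrin subunits Itga1 and Itga11, the receptor kinase Ddr2 and the uptake receptor Mrc2, against the same 6.11%. Ddr1, the related epithelial receptor kinase, stood at 47.4 and 59.2 CPM in stem-like and 15.3 and 12.1 CPM in mesenchymal-like cells. Of 10 genes of collagen breakdown and its inhibitors, 7 passed the minimum, 4 were higher (Mmp2, Mmp14, Ctsk and Timp3) and 1, Timp4, was lower, against 6.11% and 6.3% of all features.

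The basement-membrane partners of type IV were split by chain. Of 16 genes, 15 passed the minimum, and 7 were higher in mesenchymal-like cells (Lama1, Lama2, Lama4, Lamb1, Nid1, Nid2 and Sparc), against 6.11% of all features. Lama5, the laminin chain of many epithelia, was lower and stood at 58.7 and 60.0 CPM in stem-like and 1.94 and 0.405 CPM in mesenchymal-like cells. Lama2 stood at 4.72 and 4.56 CPM in stem-like and 142 and 160 CPM in mesenchymal-like cells. In endocrine-like cells 10 of the 14 partners that passed the minimum were lower than in stem-like cells and 0 were higher, against 6.15% and 6.3% of all features. In differentiating-like cells 1 partner, Nid2, was lower by 4-fold and 0 were higher, against 2.68% and 2.7% of all features.

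The other 21 of the 44 collagens were below 20 CPM in at least 1 library in every class. Of these, Col10a1, the collagen of hypertrophic cartilage, had 4 UMIs in each library over all barcodes. Col4a3 and Col4a4, the chains known from kidney filtration, stood at 0.767 and 3.72 CPM in male and at 0.940 and 5.39 CPM in female stem-like cells. Col7a1, the anchoring collagen of skin, reached at most 1.73 CPM in any male class and 1.62 CPM in any female class.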

How the data were processed

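The authors deposited UMI counts per gene and barcode, whole numbers without normalization, made with Cell Ranger 3.0.2 against mm10. The submitters' processing notes also name R 3.6.0 and Seurat versions 3 and 4. Barcodes with under 50 genes, or a mitochondrial share over 3 SD above the mean (limits 20.4% and 26.1%), were removed, which took out 159 male and 85 female barcodes. No doublets were removed in the main analysis. Class totals and ratios were computed in python 3.11.15, scipy 1.17.1 and pandas 2.3.3, with exact Poisson and conditional 95% intervals, and the scripts were tested on simulated data. A class lower than another was raised to a floor of 3 UMIs before its ratio was called. Promoters come from RefSeq and gene positions and exons from GENCODE, both on GRCm38 (mm10).

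The members and lists were chosen with earlier results of these data known. The markers were fixed with them, but the number of markers each gate asks for was set after the files were seen. Hormone genes counted only from 20 UMIs for Prl and Cga, 50 for Gh and 100 for Pomc. Ednrb-rich cells had at least 2 UMIs of Ednrb, and Aldh1a2-rich cells at least 3 of Aldh1a2 and none of Ednrb. Cells with at least 3 of 8 proliferation markers were left out of both subsets. Collagens are named with values if they reached 20 CPM in at least 1 of the 5 classes in both libraries, which 23 did. Col2a1, Col8a2, Col9a1, Col9a3, Col19a1, Col22a1, Col23a1 and Col25a1, the genes of the last paragraph and the lists of calls are named beside these, after their values were seen. Nothing says that the 3 pooled pituitaries were tagged apart, so each library is 1 sample. No batch label was found. The result of 1 gene of the basement-membrane partners is not reported here.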

Additional observations from a re-analysis of the deposited data

Results flagged for a closer look

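The barcodes that met no gate were used in no comparison, and collagen UMIs were found in them above the limit that a count of 0 allows. They numbered 3104 male and 371 female barcodes, and values are given in this order. Their medians were 1244 and 7618 UMIs and 783 and 2573 genes per barcode, so the male set was much shallower. Col1a1 stood at 105 and 22 CPM. Col3a1 stood at 113 and 25.3 CPM. Col4a1 stood at 84.7 and 66.5 CPM. All collagens together took 0.0867% of the UMIs of these male barcodes and 0.0538% of those of the female ones. Types I and III summed to 297 and 82.6 CPM, against 28.8 and 19.7 CPM in stem-like cells. What these barcodes are was not tested.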

How the results depend on the processing

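Of 83 counts of collagens recomputed under alternatives over 7 results, 71 stayed within 1.5 times of the reported count. The count higher in stem-like than in mesenchymal-like cells was 4 under every alternative run. With 1 more marker asked for, 5 collagens were higher in pituicyte-like, 2 in differentiating-like and 1 in endocrine-like than in stem-like cells. With 1 marker fewer the counts were 5 higher in pituicyte-like and 1 higher in endocrine-like cells, and 0 were lower in differentiating-like cells. With cells of 2 gates kept in the class with more marker UMIs, 9 were lower in endocrine-like cells. By the mean over cells of each cell's CPM, 1 was higher in endocrine-like cells. At a fold of 2, 3 were higher and 18 lower in differentiating-like cells, and in the female library alone 2 were higher and 11 lower. The share of all features was not computed under the alternatives. These counts thus show only how the results moved with the setting. The cause was not tested.

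Of 1595 alternative values of 178 log2 ratios of named collagens, 3 changed sign where the reported ratio was at least 2-fold, all in the male library. With cells of 2 gates kept, the endocrine-like over stem-like ratio went to 0.89 for Col1a1 and to 1.08 for Col6a2. With 1 marker fewer, the differentiating-like over stem-like ratio of Col8a1 went to 1.26. The median move was 0.03, and 80 values moved by over 1. Removing the cells with the highest Scrublet scores (894 male, 269 female) left 21, 4, 8, 1, 2, 9 and 14 for the counts of 21, 4, 8, 1, 2, 7 and 14.

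No paired analysis was possible because each sex is 1 library and no result comes from a test. Leaving out a library was run as each library alone. The number of cells, more than the UMIs per cell, limits the pituicyte-like class, with 5 cells, and the female endocrine lineages, with 46 to 102 cells.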

Other observations

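Mural cells, which wrap capillaries, were too few for a class (19 male and 2 female cells with at least 3 of 5 markers). Their basement-membrane chains summed to 7638 CPM (male) and 2504 CPM (female), against 1308 and 1061 CPM in mesenchymal-like cells. Col4a1 stood at 4889 CPM (4479 to 5327) in male mural cells and was found in 18 of 19. In the female library it had 17 UMIs in 2 cells, or 1774 CPM (1033 to 2840). Col4a2 stood at 2674 and 730 CPM. Col1a1 had 7 UMIs in the male cells, or 65.4 CPM (26.3 to 135), whereas Col3a1 stood at 1786 CPM (1541 to 2058). The ratio of Col3a1 to Col1a1 UMIs was 27.3 (13 to 68.8) in male mural and 1.33 (1.30 to 1.36) in male mesenchymal-like cells. With 2 female cells there was no check of this ratio in the other library.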
